A study of Homo sapiens with 12 samples.

Results

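The kinetochore is the protein assembly that attaches each chromosome to spindle microtubules. The set described here held 43 genes of the centromere, the kinetochore and the spindle-assembly checkpoint (SAC), out of 58233 genes in the count table. They were taken by gene name from a list and were read in 6 classes: the centromeric histone CENP-A and its deposition factors (4 genes), the constitutive centromere-associated network or CCAN (13), the KMN network (10), the RZZ complex with the outer corona (6), the SKA complex with SKAP (4) and the SAC (6). Each of the 43 genes passed the filter on low counts that left 16657 genes for testing.

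RNA was sequenced from HCT116 cells, an established human colorectal carcinoma line, in 4 groups of 3 biological replicates. Every group carried OsTIR1, the rice auxin receptor, integrated at both AAVS1 alleles and driven by a tetracycline-inducible promoter, and the line with this change alone is called parental. SDS22-degron cells also carried an mAID-mClover tag at the endogenous alleles of PPP1R7, which encodes SDS22, and had been expanded from isolated colonies, so that a difference between the lines may be one between clones. Both lines were left untreated or received doxycycline (Dox, 2 µg/ml) with the auxin indole-3-acetic acid (IAA, 500 µM) for 48 h, which directs the tagged protein to degradation. SDS22 binds the phosphatase PP1, which silences the SAC, and the study asked how cells respond to the loss of SDS22.

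CENP-A replaces histone H3 in centromeric nucleosomes and is loaded by its chaperone HJURP with the Mis18 proteins. The CCAN sits on this chromatin through the cell cycle and recruits the KMN network, made of the KNL1, MIS12 and NDC80 complexes, and NDC80 binds the microtubule with the help of SKA. On kinetochores without a microtubule, MPS1 (the product of TTK) phosphorylates KNL1, the BUB proteins dock there, and MAD1 with MAD2 starts the signal that holds anaphase back. PP1 bound to KNL1 reverses these phosphorylations. Many genes of the set are transcribed mainly in G2 and mitosis.

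Promoter sequences of the RefSeq annotation (GRCh38.p14), each running from 250 bases before to 50 bases after a transcription start, were matched by symbol to 35 of the 43 genes with 40 promoters. BUB3, CENPH, CENPL, CENPM, KNL1, KNTC1, MIS18A and TTK had no entry. The letters of the cell cycle genes homology region, or CHR (TTTGAA or TTCGAA, both strands), an element described in promoters of many late cell cycle genes, were found in 50% of the 40 promoters and in 16.4% of all 35116. Those of the CCAAT box (CCAAT, both strands) were found in 60% and 34.6%. Within 50 bases of the start, a window chosen after the positions were seen, 42.5% of the promoters of the set and 5.01% of all promoters held CHR letters. A match describes letters and does not show a functional site.

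The 100 bases before the start are shown for 4 genes with CHR letters there, CENPA (chr2:26785956-26786055, plus strand), BUB1B (chr15:40160969-40161068, plus strand), SPDL1 (chr5:169583673-169583772, plus strand) and ZWINT (chr10:56361274-56361373, minus strand), because their transcripts fell, and for CENPT (chr16:67847694-67847793, minus strand) and SKA2 (chr17:59155187-59155286, minus strand), because theirs did not. Capitals mark CHR letters at the right and CCAAT box letters elsewhere, on either strand, and each line reads 5′ to 3′ in the direction of the gene, ending at the base before the start.
CENPA: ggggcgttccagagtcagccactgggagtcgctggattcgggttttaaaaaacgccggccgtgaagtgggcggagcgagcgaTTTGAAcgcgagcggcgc
BUB1B: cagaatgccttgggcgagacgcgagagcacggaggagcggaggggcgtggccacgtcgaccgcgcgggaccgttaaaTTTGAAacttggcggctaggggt
SPDL1: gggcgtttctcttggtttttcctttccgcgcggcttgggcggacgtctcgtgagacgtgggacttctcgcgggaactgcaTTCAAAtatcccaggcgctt
ZWINT: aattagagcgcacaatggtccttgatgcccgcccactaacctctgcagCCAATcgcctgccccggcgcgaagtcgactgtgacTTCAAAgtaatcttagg
CENPT: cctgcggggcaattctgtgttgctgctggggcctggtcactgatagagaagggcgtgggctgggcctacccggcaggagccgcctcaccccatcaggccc
SKA2: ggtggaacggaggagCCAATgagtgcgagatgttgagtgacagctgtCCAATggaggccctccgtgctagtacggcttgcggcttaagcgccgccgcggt
The CHR letters began 18 bases before the start in CENPA, 23 in BUB1B, 20 in SPDL1 and 17 in ZWINT. The CENPT and SKA2 windows held none. These windows are examples. CHR letters were absent from the whole promoter of other genes that fell, among them KNSTRN, CENPI, CENPE, DSN1 and SPC24. CENPC, whose change did not pass, held them 90 bases before the start. For CENPA the RefSeq start lay 21767 bases inside the gene span of the count table.

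Libraries held 12133915 to 14657508 counts assigned to genes. Levels are given as CPM, the counts of a gene scaled to a common library total. PPP1R7 ranged from 40.1 to 51.2 CPM over the 12 libraries, and its Dox/IAA effect in SDS22-degron cells was 0.12 on the log2 scale (adjusted p = 0.265), so the transcript gives no check of a degron that acts on the protein. Of 8 colorectal epithelial markers, EPCAM, CDH1, KRT8, KRT18, KRT19 and CDX2 were expressed (at least 20.5 CPM in every library) and VIL1 and CEACAM5 reached at most 0.232 CPM. The summed leukocyte markers reached at most 0.704 CPM and the summed endothelial markers at most 1.73 CPM. The fibroblast sum, made up almost wholly of COL1A1, was 9.96 to 13.6 and 17.2 to 22.9 CPM in parental cells without and with Dox/IAA, and 13.8 to 15.8 and 21.3 to 31.8 CPM in SDS22-degron cells, with COL1A2 and DCN at 0 throughout. Parental replicate 2 stood above its group mates, most of all with Dox/IAA: the 43 genes took 0.283% of its counts, against 0.204% and 0.219% in the other Dox/IAA-treated parental libraries.

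Most of the set was lower with Dox/IAA in SDS22-degron cells. The 43 genes took 0.121% to 0.142% of the counts in the 3 Dox/IAA-treated SDS22-degron libraries and 0.204% to 0.283% in the other 9. By the quasi-likelihood test of edgeR, with p-values adjusted after Benjamini and Hochberg over all tested genes, 38 fell, 1 rose (CENPT) and 4 did not pass (CENPC, PMF1, SKA2 and MAD1L1), at an adjusted p threshold of 0.05. Among all tested genes, 25.5% were lower and 26% higher by the same rule. The median log2 fold change of the set was -1.14, against 0.0046 for all tested genes. The cut-off used by the study was an unadjusted p below 0.05 and an absolute log2 fold change over 1. The study set it on likelihood ratio p-values, for Dox/IAA-treated SDS22-degron against parental cells. Here it was set on quasi-likelihood p-values and in every comparison. By this cut-off, 30 genes of the set were lower and 1 was higher, against 4.02% and 3.82% of all tested genes. The 3 treated and 3 untreated libraries did not overlap for 40 of the 43 genes, as for 59.9% of all tested genes. In bulk RNA, fewer cells in G2 and mitosis and fewer transcripts per cell cannot be told apart. Of 10 general cell cycle genes, given further on, 8 fell, 1 rose and 1 did not pass in the same comparison.

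**Figure D1:**
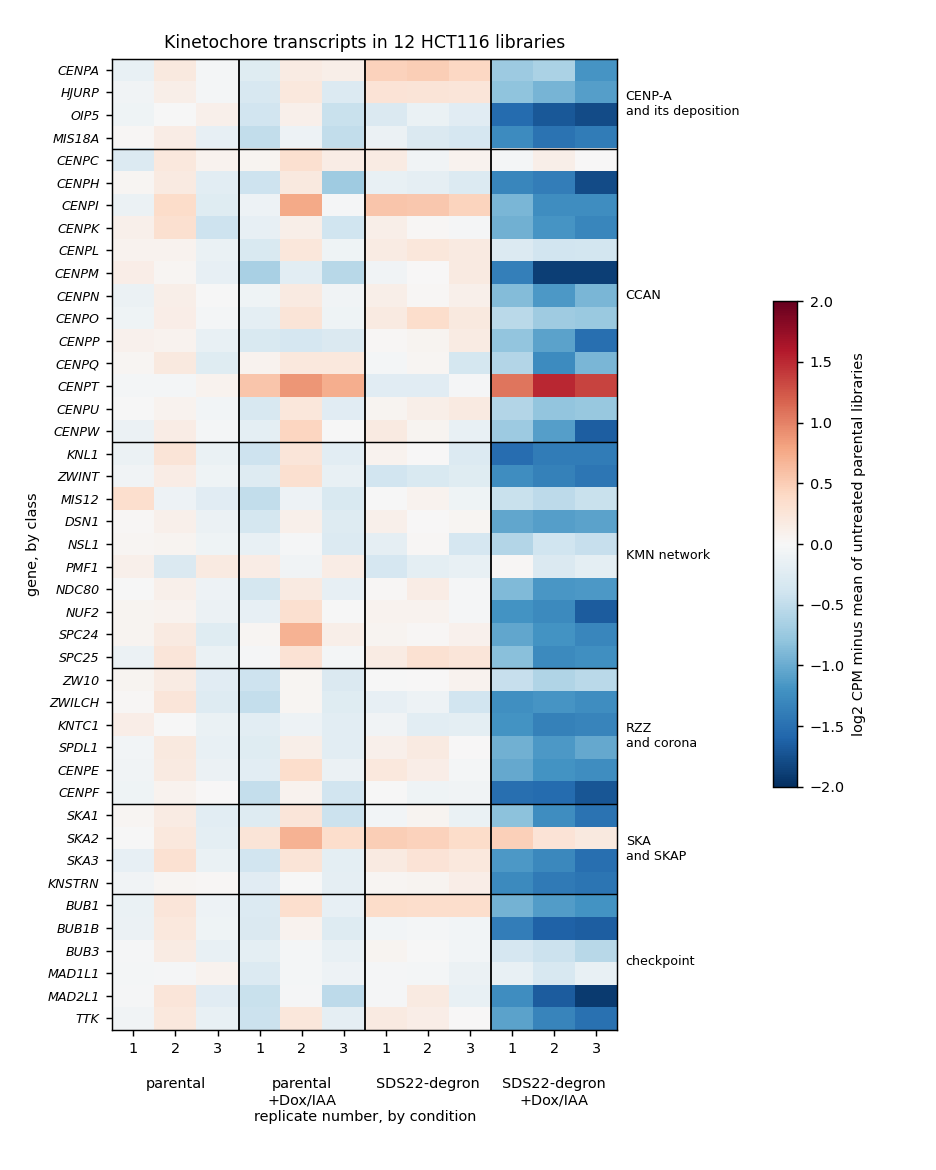
Heat map of the 43 genes (rows, by class) in the 12 libraries (columns, by condition and replicate), colored by log2 CPM minus the mean of the 3 untreated parental libraries. The 3 Dox/IAA-treated SDS22-degron libraries are blue in nearly all rows, with CENPT red, while Dox/IAA-treated parental replicate 2 is redder than its group mates.

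In parental cells, 2 genes fell with Dox/IAA (MIS18A and CENPM) and 2 rose (CENPT and SKA2), against 15.7% of all tested genes lower and 15.9% higher, and the median of the set was -0.11. Groups did not overlap for 4 of the 43 genes, against 41.3% of all tested genes. The study's cut-off gave 0 lower and 0 higher genes (0.792% and 2.35% of all tested genes). Without the fold change, edgeR at an unadjusted p below 0.05 gave 7 lower and 3 higher. DESeq2 at an adjusted p below 0.05 gave 2 and 2. Shares of all tested genes by these other rules are not given here. The number of lower genes, given here without the share of all tested genes in each refit, turned on single libraries. It was 15 without Dox/IAA-treated parental replicate 2, with a median of -0.22, where HJURP, OIP5, CENPH, CENPU, KNL1, MIS12, DSN1, ZW10, ZWILCH, CENPF, BUB1B, MAD2L1 and TTK also passed. It was 7 without untreated parental replicate 3. It was 0 without Dox/IAA-treated parental replicate 1, where the median was 0.014, and 1 without Dox/IAA-treated replicate 3 or without untreated replicate 1. When the replicate number was added as a block, because the numbers paired these libraries, 6 genes were lower (MIS18A, CENPM, MIS12, KNTC1, CENPF and MAD2L1).

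Between the treated lines, 37 genes were lower in SDS22-degron cells and 1 was higher (CENPT), against 23.1% lower and 21.8% higher among all tested genes, with a median of -1.02. The study's cut-off left 24 lower and 0 higher (3.38% and 3.25% of all tested genes). For the higher direction, edgeR gave 1 gene at an unadjusted p below 0.05 and DESeq2 gave 1 at an adjusted p below 0.05. Shares of all tested genes by these other rules, or in the refits below, are not given here. Treated libraries of the 2 lines did not overlap for 37 genes, against 52.9% of all tested genes. The CENPL call (adjusted p = 0.044) was lost with DESeq2, library size only, upper-quartile normalization or only the groups compared, and when any 1 of 8 libraries was left out, that of NSL1 without Dox/IAA-treated parental replicate 2 or Dox/IAA-treated SDS22-degron replicate 1, and that of ZW10 without the former library or Dox/IAA-treated SDS22-degron replicates 2 or 3. Without Dox/IAA-treated parental replicate 2, 34 genes were lower and the median was -0.86. This comparison and those within each line share libraries, and the values of one do not bear independently on another.

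Without treatment the lines were closer. CENPA, SKA2 and BUB1 were higher in SDS22-degron cells and ZWINT was lower, while 39 genes did not pass, against 15% of all tested genes lower and 13.2% higher, with a median of 0.034. No overlap was found for 9 genes, against 43.5% of all tested genes. The cut-off gave 0 lower and 0 higher (1.3% and 2.84% of all tested genes). At an unadjusted p below 0.05, edgeR gave 3 lower and 6 higher. At an adjusted p below 0.05, DESeq2 gave 1 and 4. Shares of all tested genes by these other rules, or in the refits below, are not given here. ZWINT was called with an adjusted p of 0.0458 and BUB1 with 0.0449. The ZWINT call was lost without untreated parental replicate 1 or 2 or any 1 of the SDS22-degron libraries. Without untreated parental replicate 1, SKA2 was the sole call left, and the higher genes numbered 7 without untreated parental replicate 2 and 6 without Dox/IAA-treated parental replicate 2.

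The Dox/IAA effects themselves differed between the lines for most of the set. In the interaction of line and Dox/IAA, the effect in SDS22-degron cells minus that in parental cells, 34 genes were lower and 1 higher, against 8.35% and 6.03% of all tested genes, with a median of -1.02. The study's cut-off gave 23 lower and 0 higher genes (2.46% and 1.15% of all tested genes). For the higher direction, CENPT was the 1 gene called by edgeR at an unadjusted p below 0.05 and by DESeq2 at an adjusted p below 0.05. Shares of all tested genes by these other rules are not given here. Not called by edgeR at an adjusted p below 0.05 were CENPC, CENPL, MIS12, NSL1, PMF1, ZW10, BUB3 and MAD1L1. Without Dox/IAA-treated parental replicate 2 the median was -0.88.

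CENP-A and its deposition factors fell together. All 4 genes were lower with Dox/IAA in SDS22-degron cells (median -1.23), between the treated lines (median -0.93) and in the interaction (median -1.16). CENPA (ENSG00000115163, chr2:26764289-26801067, plus strand), the centromeric histone, was at 21.5, 27.4 and 23.3 CPM in untreated parental cells, 20.2, 26.9 and 25.9 CPM with Dox/IAA, 33.0, 33.8 and 31.9 CPM in untreated SDS22-degron cells and 14.5, 15.5 and 10.6 CPM with Dox/IAA. The Dox/IAA-treated SDS22-degron libraries were the lowest of the 12 and the untreated ones the highest. All changes below are on the log2 scale with the SE of the fit. CENPA fell by 1.28 ± 0.13 (adjusted p = 2.88e-07) with Dox/IAA in SDS22-degron cells and was 0.01 ± 0.13 in parental cells, with a 95% interval from -0.26 to 0.28. It was also 0.45 ± 0.12 higher in untreated SDS22-degron than in untreated parental cells (adjusted p = 0.0109), a call that was lost without untreated parental replicate 1 (adjusted p = 0.0534). CENPA overlaps SLC35F6 on the same strand, so some of its reads cannot be assigned with certainty.

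HJURP (ENSG00000123485, chr2:233833416-233854566, minus strand), the chaperone that delivers CENP-A, was at 67.0, 76.2 and 68.5 CPM in untreated parental cells, 56.2, 81.7 and 58.5 CPM with Dox/IAA, 84.7, 83.8 and 83.2 CPM in untreated SDS22-degron cells and 40.4, 36.9 and 32.9 CPM with Dox/IAA. It fell by 1.19 ± 0.11 in SDS22-degron cells (adjusted p = 1.14e-07), and the parental value was -0.11 ± 0.11. Single libraries moved the parental value, which was -0.30 and passed (adjusted p = 0.0116) without Dox/IAA-treated replicate 2 and was -0.0069 without Dox/IAA-treated replicate 1. MIS18A (ENSG00000159055, chr21:32268219-32279069, minus strand), which primes the centromere for new CENP-A, was at 33.7, 36.5 and 29.4 CPM in untreated parental cells, 23.4, 30.9 and 23.5 CPM with Dox/IAA, 30.6, 27.0 and 26.1 CPM in untreated SDS22-degron cells and 13.8, 11.8 and 12.6 CPM with Dox/IAA. MIS18A fell in both lines, by 1.13 ± 0.12 (adjusted p = 5.29e-07) in SDS22-degron cells and by 0.36 ± 0.11 (adjusted p = 0.022) in parental cells. Its parental groups overlapped, and the parental call was lost under 6 of 22 alternatives, among them leaving out untreated replicate 1 or 2 or Dox/IAA-treated replicate 1 or 3 (adjusted p = 0.0503 to 0.103). OIP5, the partner of MIS18A in the Mis18 complex, fell by 1.46 ± 0.14 in SDS22-degron cells (adjusted p = 1.8e-07). OIP5 shares its locus with the antisense gene OIP5-AS1, which had 22769 counts in all against 2249 for OIP5.

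The CCAN was uneven, between its sub-complexes and within them. Of its 13 genes, 11 fell with Dox/IAA in SDS22-degron cells, CENPT rose and CENPC did not pass. The 4 genes of the CENP-H/I/K/M sub-complex fell most (median -1.46), the 4 of CENP-O/P/Q/U less (median -0.87), and CENPL and CENPN, whose products pair on the CENP-A nucleosome, by 0.53 ± 0.11 and 1.05 ± 0.09. The difference between sub-complexes was not tested. CENPM had the lowest value of the set (-1.72 ± 0.14, adjusted p = 2.43e-08), and it also fell by 0.46 ± 0.13 in parental cells (adjusted p = 0.0109), a call that was lost without Dox/IAA-treated parental replicate 1.

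CENPI (ENSG00000102384, chrX:101098218-101163681, plus strand), a structural subunit of the CCAN, was at 13.2, 18.4 and 12.0 CPM in untreated parental cells, 13.3, 24.0 and 14.1 CPM with Dox/IAA, 21, 20.8 and 19.4 CPM in untreated SDS22-degron cells and 7.55, 6.04 and 6.01 CPM with Dox/IAA. The spread of the parental libraries came with a high replicate 2 in both groups. CENPI fell by 1.64 ± 0.20 in SDS22-degron cells (adjusted p = 2.46e-06) and was 0.23 ± 0.19 in parental cells, a value that was -0.08 without Dox/IAA-treated parental replicate 2 and 0.45 without untreated parental replicate 2. Untreated, CENPI was 0.49 ± 0.18 higher in SDS22-degron than in parental cells, without overlap of the libraries. This difference did not pass (adjusted p = 0.0555), but it passed under 12 of 22 alternatives, among them DESeq2 (adjusted p = 0.0452) and the replicate block (adjusted p = 0.013). The interaction, -1.87 ± 0.28 (adjusted p = 0.00023), was the most negative of the set. CENPN (ENSG00000166451, chr16:81006498-81033114, plus strand) was at 54.3, 63.4 and 58.3 CPM in untreated parental cells, 54.9, 66.0 and 55.5 CPM with Dox/IAA, 63.6, 59.5 and 63.0 CPM in untreated SDS22-degron cells and 32.0, 26.4 and 31.2 CPM with Dox/IAA. Its interaction was -1.06 ± 0.13 (adjusted p = 4.48e-05). CENPN overlaps CMC2 on the other strand and an intronic transcript on its own strand.

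CENPC (ENSG00000145241, chr4:67468748-67545606, minus strand), which links CENP-A nucleosomes to the MIS12 complex, was at 13.4, 18.8 and 17.1 CPM in untreated parental cells, 17, 20.5 and 18.0 CPM with Dox/IAA, 18.3, 15.5 and 17.2 CPM in untreated SDS22-degron cells and 15.9, 17.7 and 16.5 CPM with Dox/IAA. The 4 groups overlapped. The Dox/IAA effect was -0.03 ± 0.12 in SDS22-degron cells, with a 95% interval from -0.28 to 0.22, and 0.16 ± 0.12 in parental cells. A processed pseudogene, CENPCP1, had 1076 counts against 2662 for CENPC, and reads shared between them may have been split.

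CENPT (ENSG00000102901, chr16:67828157-67847811, minus strand), the second link from the CCAN to the NDC80 complex, went the other way. It is singled out after its values were seen. CENPT was at 26.1, 26.0 and 27.9 CPM in untreated parental cells, 39.2, 49.1 and 44.3 CPM with Dox/IAA, 22.8, 22.8 and 26.2 CPM in untreated SDS22-degron cells and 56.2, 76.0 and 68.4 CPM with Dox/IAA. The treated and untreated libraries did not overlap in either line. CENPT rose by 1.48 ± 0.11 in SDS22-degron cells (adjusted p = 5.69e-09) and by 0.73 ± 0.11 in parental cells (adjusted p = 8.57e-05), with an interaction of 0.75 ± 0.15 (adjusted p = 0.00277). Its histone-fold partner CENPW fell by 1.14 ± 0.19 in SDS22-degron cells (adjusted p = 4.96e-05). The ratio of CENPT to CENPW there, in CPM per kilobase of exon (RPKM), was 0.216 ± 0.043 (SD, n = 3) without and 1.43 ± 0.55 with Dox/IAA. In parental cells this ratio was 0.245 ± 0.026 without and 0.385 ± 0.044 with Dox/IAA, also without overlap. NUTF2 and THAP11 lie on the opposite strand of the CENPT locus, with 20817 and 5475 counts against 6227 for CENPT, and the strand setting of the counting is not given in the sources used here. NUTF2 rose by 0.58 (adjusted p = 2.91e-07) and THAP11 fell by 0.81 (adjusted p = 1.37e-07) in SDS22-degron cells. The part of these genes in the CENPT counts was not tested. On chromosome 16, which holds CENPT and CENPN, the median of all tested genes was -0.30 between the untreated and -0.31 between the treated lines, but -0.03 and -0.02 for the Dox/IAA effects in SDS22-degron and parental cells.

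In the KMN network, 9 of 10 genes fell with Dox/IAA in SDS22-degron cells and PMF1 did not pass. The 4 genes of the NDC80 complex, which as a whole binds the microtubule, ranged from -1.40 to -1.11. The 4 MIS12 complex genes ranged from -1.12 to 0.08. KNL1 (ENSG00000137812, chr15:40594020-40664342, plus strand), the scaffold that binds both PP1 and the BUB proteins, was at 80.2, 104.5 and 79.6 CPM in untreated parental cells, 65.2, 103.7 and 75.5 CPM with Dox/IAA, 91.6, 88.0 and 72.5 CPM in untreated SDS22-degron cells and 30.4, 33.0 and 33.0 CPM with Dox/IAA. It fell by 1.39 ± 0.14 in SDS22-degron cells (adjusted p = 3.09e-07), and in parental cells it was -0.11 ± 0.14. The parental value of KNL1 was -0.32 and passed (adjusted p = 0.0382) without Dox/IAA-treated replicate 2, and it was 0.03 without untreated replicate 2. ZWINT, which joins KNL1 to the RZZ complex, had the highest level per length of the set in untreated parental cells (40.8 ± 3.9 RPKM, SD, n = 3) and fell by 1.03 ± 0.12.

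NUF2 (ENSG00000143228, chr1:163266576-163355764, plus strand), the coiled-coil partner of NDC80, was at 36.9, 37.3 and 32.9 CPM in untreated parental cells, 31.6, 44.6 and 35.4 CPM with Dox/IAA, 37.2, 37.2 and 35.2 CPM in untreated SDS22-degron cells and 15.5, 14.8 and 11.2 CPM with Dox/IAA. NUF2 fell by 1.4 ± 0.13 in SDS22-degron cells (adjusted p = 6.34e-08), and the parental value was 0.06 ± 0.12. SPC25 (ENSG00000152253, chr2:168834132-168913371, minus strand), in the end of the same complex that faces the centromere, was at 23.6, 30.1 and 23.4 CPM in untreated parental cells, 25, 31.3 and 24.9 CPM with Dox/IAA, 28.7, 31.5 and 30.2 CPM in untreated SDS22-degron cells and 14.3, 10.6 and 10.9 CPM with Dox/IAA. Its interaction was -1.41 ± 0.18 (adjusted p = 6.25e-05), and that of NUF2 -1.46 ± 0.17 (adjusted p = 3.83e-05).

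The MIS12 complex was uneven. DSN1 fell by 1.12 ± 0.10, MIS12 by 0.46 ± 0.12 and NSL1 by 0.33 ± 0.10 in SDS22-degron cells (adjusted p = 7.45e-08, 0.00371 and 0.00943), and the NSL1 call was lost without untreated SDS22-degron replicate 2. In the interaction DSN1 alone of the 4 was called. PMF1 (ENSG00000160783, chr1:156212993-156240042, plus strand) was at 20.2, 15.4 and 21.3 CPM in untreated parental cells, 20.8, 17.9 and 20.9 CPM with Dox/IAA, 14.8, 16.4 and 16.9 CPM in untreated SDS22-degron cells and 19.1, 15.3 and 16.5 CPM with Dox/IAA. Its groups overlapped in every comparison, and the effect in SDS22-degron cells was 0.08 ± 0.12, with a 95% interval from -0.18 to 0.34. MIS12 lies across from DERL2 on the other strand.

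Every RZZ and corona gene fell with Dox/IAA in SDS22-degron cells, 6 of 6, with a median of -1.13. CENPF (ENSG00000117724, chr1:214603195-214664588, plus strand), a large coiled-coil protein of the corona, was at 312.8, 349.8 and 335.3 CPM in untreated parental cells, 238.3, 348.3 and 256.1 CPM with Dox/IAA, 330.5, 313.2 and 316.9 CPM in untreated SDS22-degron cells and 116.5, 114.6 and 101.8 CPM with Dox/IAA. In the parental group with Dox/IAA, replicate 2 alone kept the untreated level. CENPF fell by 1.53 ± 0.11 in SDS22-degron cells (adjusted p = 3.74e-09). In parental cells its value of -0.24 ± 0.10 did not pass (adjusted p = 0.0777), and it passed under 5 of 22 alternatives, with -0.25 under the replicate block (adjusted p = 0.0312) and -0.43 without replicate 2 (adjusted p = 0.000287).

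KNTC1 (ENSG00000184445, chr12:122527246-122626396, plus strand), which encodes the ROD subunit of RZZ, was at 89.9, 80.8 and 74.7 CPM in untreated parental cells, 70.2, 75.7 and 70.6 CPM with Dox/IAA, 77.8, 70.7 and 70.9 CPM in untreated SDS22-degron cells and 35.5, 32.1 and 32.8 CPM with Dox/IAA. It fell by 1.13 ± 0.08 in SDS22-degron cells (adjusted p = 4.48e-09), with an interaction of -0.95 ± 0.11 (adjusted p = 3.37e-05). ZW10 (ENSG00000086827, chr11:113733187-113773811, minus strand), the RZZ subunit that also acts in membrane traffic, was at 48.7, 52.1 and 40.0 CPM in untreated parental cells, 35.0, 47.7 and 38.0 CPM with Dox/IAA, 46.2, 47.1 and 48.7 CPM in untreated SDS22-degron cells and 34.0, 30.9 and 32.3 CPM with Dox/IAA. The fall of ZW10 in SDS22-degron cells was smaller, with a log2 fold change of -0.55 ± 0.11 (adjusted p = 0.000337), and its interaction did not pass (-0.32 ± 0.15, adjusted p = 0.167). In parental cells ZW10 did not pass with all libraries, but it passed without Dox/IAA-treated replicate 2 (-0.36, adjusted p = 0.00968) or untreated replicate 3 (-0.33, adjusted p = 0.029). ZWILCH fell by 1.01 ± 0.13, SPDL1, the dynein adaptor Spindly, by 1.14 ± 0.11 and the kinesin gene CENPE by 1.26 ± 0.13. ZWILCH overlaps RPL4 on the other strand, a ribosomal protein gene with 161502 counts against 5877.

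Within the SKA complex and SKAP, SKA1, SKA3 and KNSTRN fell with Dox/IAA in SDS22-degron cells and SKA2 did not pass. KNSTRN (ENSG00000128944, chr15:40382721-40394246, plus strand), the gene of SKAP, was at 65.3, 70.6 and 69.4 CPM in untreated parental cells, 58.3, 68.3 and 60.5 CPM with Dox/IAA, 70.6, 71.1 and 75.1 CPM in untreated SDS22-degron cells and 28.3, 25.6 and 24.9 CPM with Dox/IAA. It fell by 1.46 ± 0.08 (adjusted p = 5.49e-10), and its interaction of -1.32 ± 0.11 (adjusted p = 1.81e-06) had the smallest p of the set. SKA3 (ENSG00000165480, chr13:21153595-21176602, minus strand), which is phosphorylated by CDK1 and binds the NDC80 complex, was at 53.1, 73.1 and 54.2 CPM in untreated parental cells, 45.7, 71.0 and 52.1 CPM with Dox/IAA, 67.7, 71.7 and 68.6 CPM in untreated SDS22-degron cells and 26.7, 24.5 and 21 CPM with Dox/IAA. SKA3 fell by 1.53 ± 0.14 in SDS22-degron cells (adjusted p = 1.07e-07).

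SKA2 (ENSG00000182628, chr17:59109951-59155269, minus strand), which forms the core of the complex with SKA1 and SKA3, was at 63.7, 73.9 and 55.7 CPM in untreated parental cells, 76.4, 103.5 and 81.5 CPM with Dox/IAA, 89.8, 88.1 and 82.8 CPM in untreated SDS22-degron cells and 89.2, 77.0 and 73.1 CPM with Dox/IAA. The untreated parental libraries lay below those of Dox/IAA-treated parental and untreated SDS22-degron cells, and overlapped the Dox/IAA-treated SDS22-degron libraries. SKA2 rose by 0.43 ± 0.11 with Dox/IAA in parental cells (adjusted p = 0.00607), was 0.43 ± 0.11 higher in untreated SDS22-degron than in untreated parental cells (adjusted p = 0.00678), and had a value of -0.12 ± 0.11 with Dox/IAA in SDS22-degron cells. The interaction was -0.56 ± 0.16 (adjusted p = 0.0221), and this call was lost when any 1 of 5 libraries was left out. These were untreated parental replicate 3 (-0.46, adjusted p = 0.0638), Dox/IAA-treated parental replicate 2 (-0.40, adjusted p = 0.0634), untreated SDS22-degron replicates 1 and 2 and Dox/IAA-treated SDS22-degron replicate 3. Reads may be shared with the pseudogene SKA2P1, which had 1055 counts against 12394.

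Of the 6 SAC genes, 5 fell with Dox/IAA in SDS22-degron cells, with a class median of -1.41. BUB1B (ENSG00000156970, chr15:40161023-40221136, plus strand), which encodes BUBR1, a subunit of the mitotic checkpoint complex, was at 113.4, 143.1 and 115.8 CPM in untreated parental cells, 100.9, 129.8 and 103.3 CPM with Dox/IAA, 119.1, 120.7 and 119.3 CPM in untreated SDS22-degron cells and 47.5, 40.3 and 39.3 CPM with Dox/IAA. The highest Dox/IAA-treated SDS22-degron library was below every other library. BUB1B fell by 1.5 ± 0.11 in SDS22-degron cells (adjusted p = 4.33e-09), with an interaction of -1.34 ± 0.15 (adjusted p = 2.5e-05). Its parental value did not pass, except without Dox/IAA-treated replicate 2 (-0.28, adjusted p = 0.0286). BUB1 (ENSG00000169679, chr2:110637698-110678114, minus strand), the kinase that marks the centromere for shugoshin, was at 116.7, 152.6 and 119.4 CPM in untreated parental cells, 106.4, 162.7 and 115.3 CPM with Dox/IAA, 165.3, 164.6 and 163.8 CPM in untreated SDS22-degron cells and 66.9, 59.5 and 56.1 CPM with Dox/IAA. It fell by 1.44 ± 0.13 in SDS22-degron cells (adjusted p = 5.89e-08), where it had started 0.34 ± 0.12 higher than in parental cells, a call that was lost when untreated parental replicate 1 or 3, any untreated SDS22-degron library or Dox/IAA-treated SDS22-degron replicate 2 was left out (adjusted p = 0.052 to 0.155).

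MAD2L1, the MAD2 gene, fell by 1.59 ± 0.16 (adjusted p = 1.66e-07) and TTK, the MPS1 gene, by 1.38 ± 0.14 (adjusted p = 2.17e-07). BUB3, which brings BUB1 and BUBR1 to KNL1, fell by 0.44 ± 0.08 (adjusted p = 0.000139), and its interaction did not pass (-0.31 ± 0.11, adjusted p = 0.0728). MAD1L1 (ENSG00000002822, chr7:1815793-2233243, minus strand), the MAD1 gene, was at 27.7, 28.0 and 30.1 CPM in untreated parental cells, 23.7, 27.9 and 26.7 CPM with Dox/IAA, 28.2, 27.7 and 26.3 CPM in untreated SDS22-degron cells and 25.7, 22.9 and 25.9 CPM with Dox/IAA. The SDS22-degron groups did not overlap, but the value of -0.14 ± 0.09, with a 95% interval from -0.33 to 0.04, did not pass (adjusted p = 0.178). Its interaction was -0.01 ± 0.12.

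**Figure D2:**
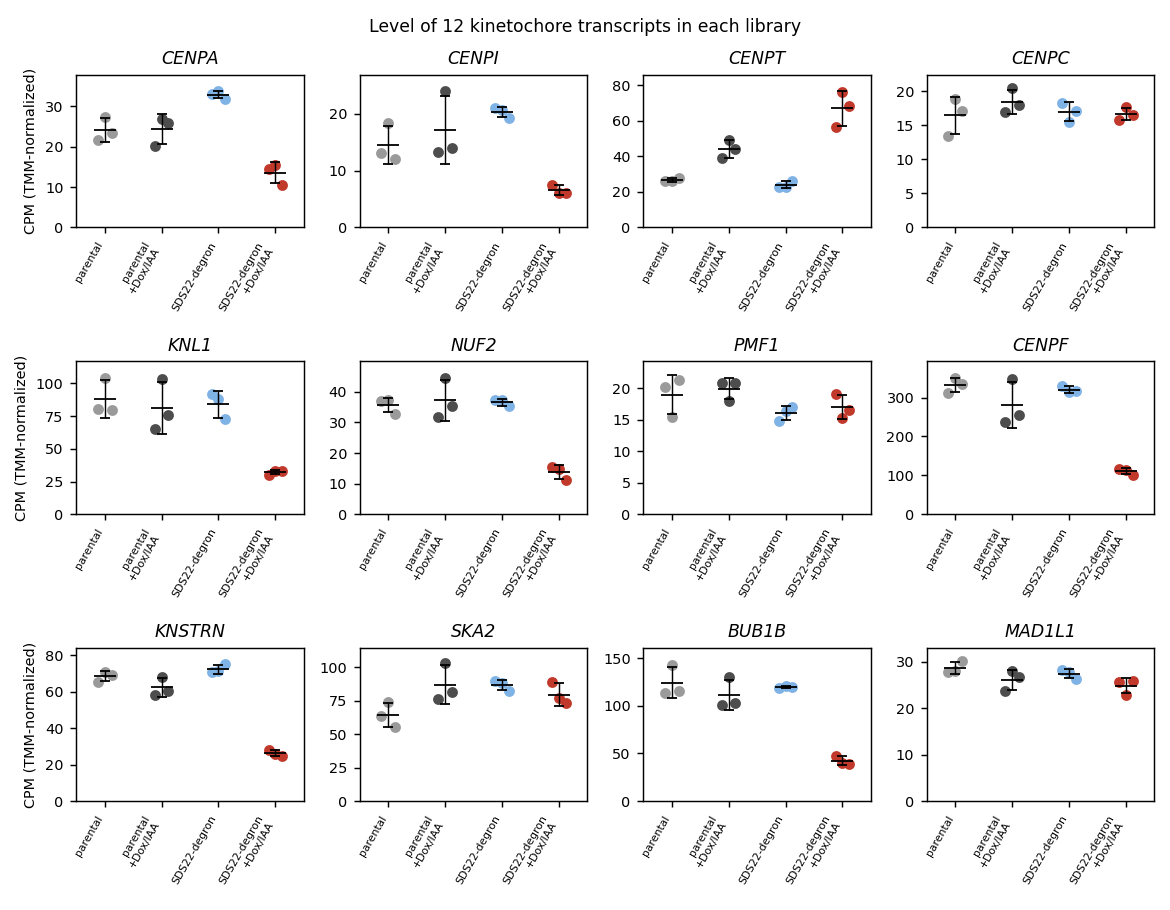
CPM of 12 genes in each library (points), with the mean and SD of the 3 libraries per group (black). The Dox/IAA-treated SDS22-degron points (red) lie lowest for CENPA, CENPI, KNL1, NUF2, CENPF, KNSTRN and BUB1B, highest for CENPT, and among the other groups for CENPC, PMF1 and SKA2.

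Partners in a complex did not move equally, and the ratios of their RPKM were taken for 8 pairs, of which CENPT over CENPW is given above. The pairs were chosen after the values were seen and are given without a test. MAD1L1 over MAD2L1 was 0.264 ± 0.053 and 0.301 ± 0.047 in parental cells without and with Dox/IAA, and 0.250 ± 0.023 and 0.704 ± 0.172 in SDS22-degron cells (SD, n = 3). BUB3 over BUB1B went from 1.18 ± 0.05 to 2.48 ± 0.11 between untreated and treated SDS22-degron cells. SKA2 over SKA1 was 2.22 ± 0.11 and 4.49 ± 0.57 in the same groups. It also rose in parental cells, from 1.59 ± 0.04 to 2.385 ± 0.295, without overlap. In the SDS22-degron groups MIS12 over DSN1 was 0.748 ± 0.054 and 1.18 ± 0.02, and ZW10 over KNTC1 2.46 ± 0.19 and 3.66 ± 0.06. NDC80 over NUF2 was 1.28 ± 0.05 and 1.59 ± 0.22. In parental cells it went the other way, from 1.266 ± 0.044 to 1.135 ± 0.013 with Dox/IAA, without overlap. By contrast, SPC24 over SPC25 was 0.495 ± 0.028 and 0.540 ± 0.050 in the SDS22-degron groups, with overlapping libraries.

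**Figure D3:**
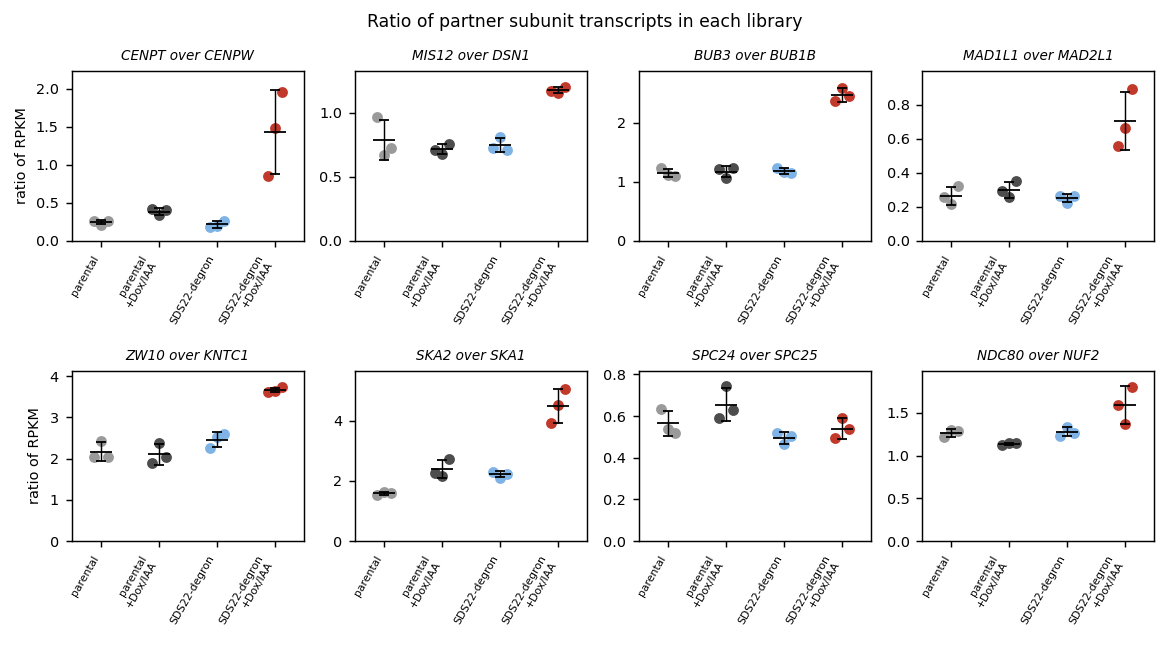
Ratio of the RPKM of 8 pairs of partner genes in each library (points), with the mean and SD of the 3 libraries per group (black). The Dox/IAA-treated SDS22-degron points (red) stand above the other groups in each panel but that of SPC24 over SPC25.

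The promoters were also read by the interaction call. Among the 28 genes that were lower in the interaction and had a RefSeq promoter, 17 held CHR letters in a promoter. Within 50 bases of the start, a window chosen after the positions were seen, 16 of the 28 held them. Of all promoters, counted per promoter and not per gene, 16.4% held CHR letters and 5.01% held them within that window. Among the 7 other genes with a promoter, CENPC and ZW10 held CHR letters, both farther than 50 bases from the start. The 7 were CENPC, MAD1L1, MIS12, NSL1, PMF1, ZW10 and CENPT, so the comparison rests on few genes. The interaction call is not the same as a fall in SDS22-degron cells, since SKA2, which did not fall there, is among the 28, and MIS12, NSL1 and ZW10, which fell there, are among the 7. CCAAT box letters were present in 18 of the 28 and in 4 of the 7, and in 34.6% of all promoters.

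Other genes of the centromere and kinetochore were read from a list of 27. Of these, 21 fell with Dox/IAA in SDS22-degron cells, 3 rose and 3 did not pass, with a median of -1.07, against 25.5% lower and 26% higher among all tested genes. In the interaction 20 were lower, against 8.35% of all tested genes. In parental cells 7 fell (CENPX, CENPV, CDC20, TRIP13, AURKB, KIF18A and BOD1) and 2 rose, against 15.7% lower and 15.9% higher. AURKB, BIRC5 and CENPV had the smallest p for the Dox/IAA effect in SDS22-degron cells. AURKB, the kinase of the chromosomal passenger complex, was at 79.7 ± 1.4 CPM without and 25.5 ± 1.3 CPM with Dox/IAA in SDS22-degron cells (SD, n = 3), a log2 fold change of -1.64 (adjusted p = 1.09e-09), and it fell by 0.29 in parental cells (adjusted p = 0.0271). BIRC5, the survivin subunit of that complex, went from 286.3 ± 5.5 to 97.6 ± 9.5 CPM (-1.55, adjusted p = 1.33e-09). CENPV fell by 1.43 in SDS22-degron cells (adjusted p = 1.67e-09) and by 1.03 in parental cells (adjusted p = 1.98e-07). The 3 that rose, CLASP1, NDEL1 and MAD2L1BP, rose by 0.32, 0.27 and 0.21 (adjusted p = 0.000249, 0.00262 and 0.0478), and CLASP1 and NDEL1 rose in parental cells as well, by 0.27 and 0.29.

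A list of 10 general cell cycle genes was read beside the set. Of these, 8 fell with Dox/IAA in SDS22-degron cells, CDKN1A rose and CCND1 did not pass, with a median of -1.06. Among all tested genes, 25.5% were lower and 26% higher. CCNA2, CDK1, PCNA, CCNE2 and CCNE1 were among those that fell, with log2 fold changes of -1.4, -1.30, -0.84, -0.67 and -0.61. MKI67, which encodes the proliferation marker Ki-67, fell from 884 ± 18 to 313 ± 21 CPM (SD, n = 3; log2 fold change -1.5, adjusted p = 5.6e-09) in SDS22-degron cells and was -0.12 in parental cells. TOP2A, a topoisomerase of mitotic chromosomes, and CCNB1, the mitotic cyclin, had log2 fold changes of -1.28 and -1.70 (adjusted p = 7.48e-09 and 7.97e-09). CDKN1A, the cyclin-dependent kinase inhibitor p21, rose from 504 ± 54 to 824 ± 69 CPM (log2 fold change 0.71, adjusted p = 1.18e-06), and it was already 0.94 higher in untreated SDS22-degron than in untreated parental cells (adjusted p = 2.58e-07). In parental cells, PCNA alone of these 10 genes fell with Dox/IAA (-0.25, adjusted p = 0.037) and 9 did not pass. The parental median of the 10 was -0.13. Among all tested genes, 15.7% were lower and 15.9% higher in parental cells. The part of cell cycle position in the values of the 43 genes was not tested.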

How the data were processed

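RNA of 12 HCT116 cultures was prepared with a stranded poly-A kit. Per the labels and the submitters' processing notes, the authors made gene counts with cutadapt 1.15, Bowtie2 2.3.3.1, STAR 2.5.2b, SAMtools 1.5 and featureCounts 1.5.3 on GRCh38. The deposited table holds raw counts for 58233 genes, with gene lengths and GC content in percent as deposited by the authors, and the strand setting is not given in the sources used here. Groups came from the labels. The members and lists were chosen with earlier results of these data known.

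Counts were tested in R 4.3.3 with edgeR 4.0.16 (TMM normalization, filterByExpr with a minimum count of 10, one model over the 4 groups, quasi-likelihood test), with Benjamini-Hochberg adjustment over 16657 genes and calls at an adjusted p below 0.05. Standard errors of fold changes came from the F statistic, as the absolute log2 fold change over its square root. The common biological coefficient of variation was 7.48% and the median standard error of the 43 genes 0.123 for the Dox/IAA effect in SDS22-degron cells. p-values measure the spread between these 3 libraries per group. No 2 libraries held the same counts, and all pairs within a group differed by more than sampling noise (chi-square per degree of freedom 2.06 to 9.02). The method was tested on simulated data.

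Genes given in all libraries were, in each class, the 2 with the smallest and the 1 with the largest p in the interaction, plus KNL1 and CENPA by name, and CENPT, added after its values were seen. CPM use TMM-scaled totals, and RPKM the exon lengths of the table. HASPIN was matched by an older symbol. Deviations of same-numbered libraries from their group means correlated at 0.12 to 0.25 between the parental groups and 0.10 to 0.14 between the treated groups, above 0.1 in 3 of 3 pairs each, so the number was taken to pair these, and at -0.0093 to 0.095 between the SDS22-degron groups and 0.058 to 0.12 between the untreated groups, where it was not. As alternatives, the fit was repeated with the likelihood ratio test, DESeq2 1.42.0, other normalizations and filters, only the groups compared, the replicate block, a GC correction and each library left out.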

Additional observations from a re-analysis of the deposited data

Results flagged for a closer look

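By the interaction test of edgeR, the Dox/IAA effect was lower in SDS22-degron than in parental cells for 34 genes and higher for 1 (CENPT). Among all tested genes these shares were 8.35% and 6.03%. SKA2, which is among the 34, had effects of -0.12 in SDS22-degron and 0.43 in parental cells. Of the genes given in all libraries, the interaction log2 fold change was -1.29 for CENPA, -1.08 for HJURP and -0.77 for MIS18A. In the CCAN it was -1.87 for CENPI and -1.06 for CENPN. The KMN genes had values of -1.27 for KNL1, -1.46 for NUF2 and -1.41 for SPC25. Values of -0.95 and -1.28 belonged to KNTC1 and CENPF. In the SKA class they were -0.56 for SKA2, -1.43 for SKA3 and -1.32 for KNSTRN. The SAC genes BUB1 and BUB1B were at -1.42 and -1.34. Groups of 3 libraries are too small for the test for a single outlying library.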

How the results depend on the processing

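Over 22 alternatives, 2122 of 2180 values of named genes kept their side of the threshold, 21 no longer passed and 37 newly passed. Of the 2122, 51 had the other sign, from 20 of 100 named results, none of them called and with reported values of at most 0.23 log2 units in size. No called value changed sign. The counts below are of the 43 genes alone, and shares of all tested genes under each alternative are not given here. Counts in the SDS22-degron effect stayed at 37 to 38 lower and 1 higher with each library left out, with medians from -1.28 to -1.10. For the interaction these ranges were 33 to 36 and 1, with medians from -1.12 to -0.88.
In parental cells the 2 lower genes became 1 with library size only, 5 without a filter, 1 with only the groups compared, 6 with the replicate block, 5 with the GC correction, 6 with both and 0 to 15 with 1 library left out. Between the treated lines, the median with 1 library left out ranged from -1.11 to -0.86. Between the untreated lines, the 1 lower gene became 0 with library size only or upper-quartile normalization, 3 with the GC correction and block, and 0 to 2 with 1 library left out, and the 3 higher genes became 5 without a filter, 6 with only the groups compared, 6 with the replicate block and 1 to 7 with 1 library left out. The likelihood ratio test added MIS12 to the lower genes in parental cells. It also added CENPI to the higher genes of the untreated lines. So did DESeq2, library size only, upper-quartile normalization and the GC correction, with or without the block. The block added CENPL and BUB3 to the interaction and lost no call. In the untreated lines each of 6 libraries correlated best with its own number, in the SDS22-degron line 3 of 6 did. By the study's cut-off, the parental counts were 0 and 0, the treated lines 24 lower and 0 higher, the untreated lines 0 and 0, and the interaction 0 higher. The cause of these changes between settings was not tested. With 3 libraries per group, differences between groups under about 0.25 log2 units were within the 95% intervals of most of the 43 genes. The intervals of the interaction were wider, with a median SE of 0.171 against 0.123 for the Dox/IAA effect in SDS22-degron cells.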
